A study of Mus musculus with 4 samples.

Results

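The interferon-stimulated genes are described here in bulk preparations of isolated mouse cardiomyocytes, the contractile cells of the heart. The mice were with and without overexpression of RBFOX2, a protein that binds RNA and steers alternative splicing. The 51 genes were chosen by their gene name out of the 48432 gene rows of the deposited table. All 51 names were found, each on 1 row. The names were put together with the values of both groups already known, so every difference between the groups is a description and none was tested. The data were 4 libraries in 2 groups of 2. The MHC control came from mice whose genotype label is MHC alone, and the Rbfox2 OE group from mice whose genotype label is RbFox2. Both shared the mixed C57BL x FVB strain background, a doxycycline diet of 3 days and a Langendorff isolation of the cardiomyocytes. The series title names the non-muscle isoform of RBFOX2 and sets it in myotonic dystrophy. The promoter and construct behind the genotype labels, the age and sex of the mice, and whether a library pools several mice are not given in the sources used here.

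Interferons are secreted signals of antiviral defence. Type I interferons bind the receptor chains IFNAR1 and IFNAR2, whose kinases JAK1 and TYK2 activate transcription factors, STAT2 and IRF9 among them, that bind the interferon-stimulated response element (ISRE). Interferon gamma acts through IFNGR1 and IFNGR2 and on genes with a gamma-activated site (GAS). The induced genes sense foreign RNA, block viral entry and translation, degrade RNA, or tag and modify proteins, and a low level of many of them is present in the heart without infection.

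The table gave 1 FPKM value per gene and group (fragments normalised to transcript length and sequencing depth, so that genes of different length can be compared), and each value had a lower and an upper limit. The libraries have no values of their own in the table, so no spread between replicates could be measured. In what follows each value is the authors' pooled estimate, and the brackets after it hold the authors' bounds in FPKM. Bounds that do not overlap are called separate, and counts of them take genes with a mean of 1 FPKM or more. The log2 ratio sets Rbfox2 OE over MHC control after adding 1 FPKM to each, which makes the change of weakly expressed genes look smaller. A gene is called 2-fold higher or lower where this log2 ratio is at least 1 in size. On the FPKM values alone, without the added 1, Irf9, Trim25, Parp9 and Parp12 also passed 2-fold. The overexpressed gene itself stood at 14.7 FPKM in MHC control (10.4 to 19.03) against 293 FPKM in Rbfox2 OE (214 to 373). The number of reads behind the values is unknown. The highly abundant cardiac gene Myh6 has the status HIDATA in both groups, which Cuffdiff gives where the fragments are too many for an estimate, and is listed at 0. All 51 interferon-stimulated genes had the status OK in both groups.

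The sequence around each start site was searched for the ISRE core and the GAS. The ISRE core was read as GAAA followed by any 2 bases and a second GAAA, and the GAS as the letters TTCNNNGAA. Windows from 250 bases before to 50 bases after the annotated start were taken from RefSeq (GRCm38.p6). The table held windows for 38 of the 51 genes, 46 windows in all. Not in it were Dhx58, Gbp6, Gbp9, Ifi27, Ly6e, Mx1, Mx2, Oas2, Parp9, Parp14, Rtp4, Usp18 and Zbp1. Both strands were searched, TTCNNNGAA reads the same on either strand, and matches of either motif could overlap each other. The 5 windows with a match that belong to the largest log2 ratios follow 5′ to 3′ on the strand of the gene, with the matched bases in capitals. They are shown so that the ratios of these genes can be set beside the letters at their own start sites. Genes without a match were passed over, Oasl2, Irf7 and Ifitm1 among them.
Ifit3 (chr19:34583279-34583578, plus strand): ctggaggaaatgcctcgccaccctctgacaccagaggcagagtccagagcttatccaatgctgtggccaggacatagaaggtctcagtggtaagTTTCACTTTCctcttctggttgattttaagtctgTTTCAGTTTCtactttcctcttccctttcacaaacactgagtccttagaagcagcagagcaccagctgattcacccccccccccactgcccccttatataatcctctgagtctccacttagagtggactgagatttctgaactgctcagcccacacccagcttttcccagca
Isg15 (chr4:156200769-156201068, minus strand): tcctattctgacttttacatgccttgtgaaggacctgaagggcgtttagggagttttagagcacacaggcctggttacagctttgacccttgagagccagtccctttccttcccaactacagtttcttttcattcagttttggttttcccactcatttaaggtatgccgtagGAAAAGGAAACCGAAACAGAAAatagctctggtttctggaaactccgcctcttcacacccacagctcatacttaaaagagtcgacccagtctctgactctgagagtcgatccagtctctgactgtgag
Ifit1 (chr19:34640639-34640938, plus strand): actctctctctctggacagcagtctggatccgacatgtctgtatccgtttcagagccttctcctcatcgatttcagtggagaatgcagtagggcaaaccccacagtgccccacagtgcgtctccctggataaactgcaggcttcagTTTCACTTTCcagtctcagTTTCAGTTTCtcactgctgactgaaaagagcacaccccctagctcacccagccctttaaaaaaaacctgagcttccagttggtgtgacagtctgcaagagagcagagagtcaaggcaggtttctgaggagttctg
Rsad2 (chr12:26456403-26456702, minus strand): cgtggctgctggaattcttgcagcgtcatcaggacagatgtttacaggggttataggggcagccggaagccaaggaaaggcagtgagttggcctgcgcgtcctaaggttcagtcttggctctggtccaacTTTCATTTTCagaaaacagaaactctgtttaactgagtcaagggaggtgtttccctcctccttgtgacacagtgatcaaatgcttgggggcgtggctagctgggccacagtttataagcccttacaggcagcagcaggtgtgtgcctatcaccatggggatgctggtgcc
Ifitm3 (chr7:141010695-141010994, minus strand): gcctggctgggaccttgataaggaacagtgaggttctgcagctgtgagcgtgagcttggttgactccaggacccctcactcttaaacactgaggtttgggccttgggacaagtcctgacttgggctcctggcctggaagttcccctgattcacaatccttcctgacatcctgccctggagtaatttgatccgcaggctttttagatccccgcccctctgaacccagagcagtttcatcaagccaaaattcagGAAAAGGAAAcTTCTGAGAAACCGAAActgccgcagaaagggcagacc
Ifit3 and Ifit1 each held 2 ISRE cores on the opposite strand, upstream of the start. Isg15 held 3 that overlap each other in 1 run, and their first bases lay 78, 72 and 66 bases before the start. In Ifitm3 the 2 ISRE cores and 1 GAS match lay just after the start. For contrast, the windows of 2 genes whose levels were close in both groups are shown, chosen after their values were seen.
Irf1 (chr11:53769764-53770063, plus strand): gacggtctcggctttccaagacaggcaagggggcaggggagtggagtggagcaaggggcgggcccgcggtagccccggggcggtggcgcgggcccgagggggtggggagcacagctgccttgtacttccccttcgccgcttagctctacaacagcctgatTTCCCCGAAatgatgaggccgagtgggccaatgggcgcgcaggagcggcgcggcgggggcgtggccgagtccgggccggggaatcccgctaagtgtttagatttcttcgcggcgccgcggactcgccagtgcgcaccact
Eif2ak2 (chr17:78882523-78882822, minus strand): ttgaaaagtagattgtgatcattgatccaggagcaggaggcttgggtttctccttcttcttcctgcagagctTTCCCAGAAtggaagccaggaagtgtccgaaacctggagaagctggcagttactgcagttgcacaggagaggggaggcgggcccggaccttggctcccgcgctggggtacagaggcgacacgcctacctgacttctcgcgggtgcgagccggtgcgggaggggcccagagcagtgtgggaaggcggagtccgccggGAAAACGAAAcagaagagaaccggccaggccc
Irf1 held 1 GAS match and no ISRE core, and Eif2ak2 held 1 of each.

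Over the 38 genes, 19 held at least 1 ISRE core, 10 held a GAS match, 6 held both and 15 held neither. Of all 27025 genes in the promoter table, 3.99% held the ISRE core and 9.55% the GAS letters in a window of the same length. The names were chosen as those of interferon-stimulated genes, and interferons act through these motifs, so nothing is read from the gap. The median log2 ratio was 1.62 in the 19 genes with an ISRE core and 1.47 in the 19 without one, and ratios above 2 occurred on both sides. Oasl2, Irf7 and Ifitm1 had log2 ratios of 2.28, 2.28 and 2.202 and no match to either motif. A match is a description of letters, and its absence says only that these letters are not in the window.

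**Figure D1:**
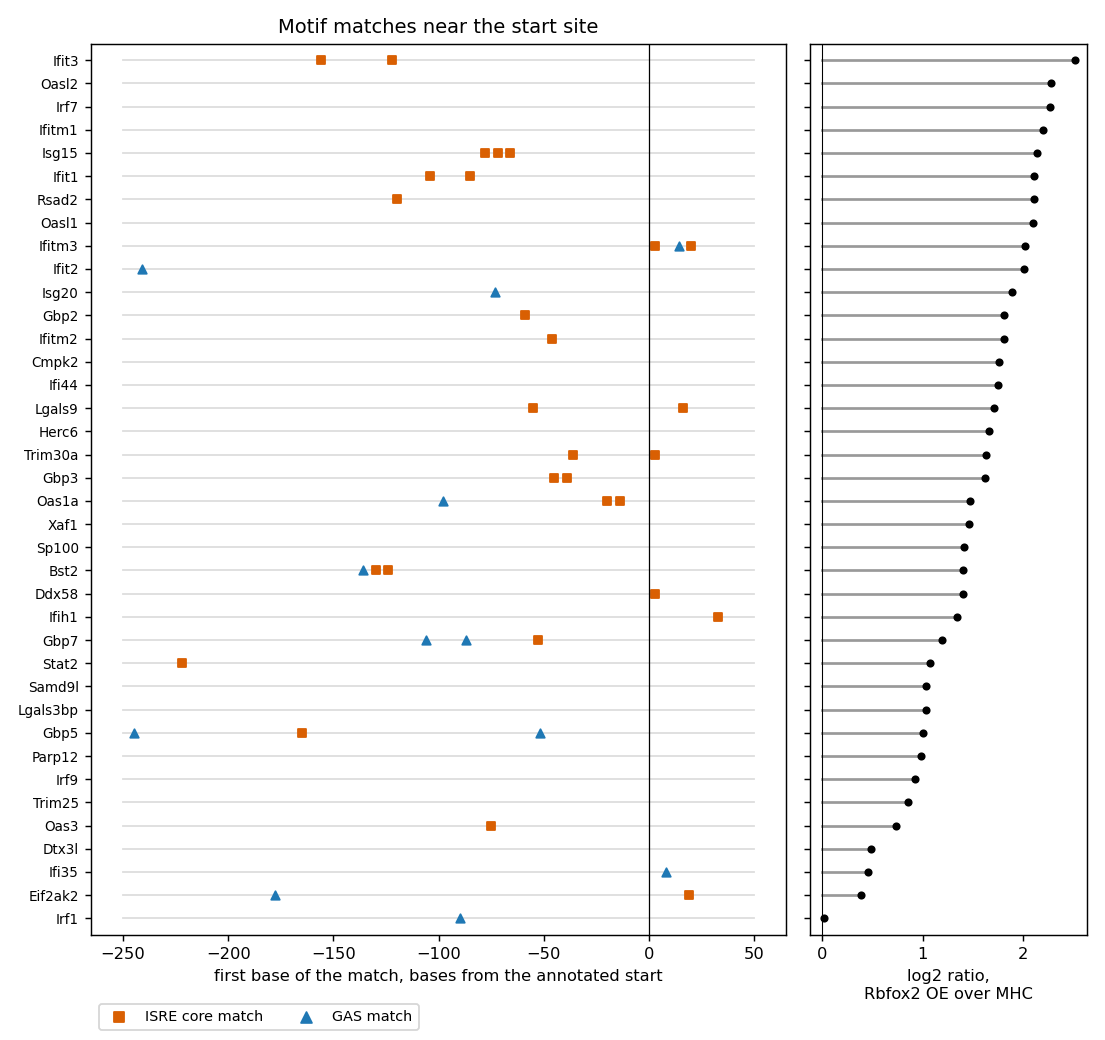
Positions of ISRE core matches (squares) and GAS matches (triangles) from 250 bases before to 50 bases after the annotated start, for the 38 genes with a window, ordered by log2 ratio, which is drawn on the right. Matches occur along the whole order, from Ifit3 at 2.52 to Irf1 at 0.02, and 15 genes have none.

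Nearly the whole group stood higher in the Rbfox2 OE preparations. The FPKM value was higher in 50 of the 51 genes and lower in 1, Gbp6. Summed over the 51 genes, the values came to 545 FPKM in MHC control and to 1651 FPKM with RBFOX2 overexpressed. Among all genes of the table, 11699 reached a mean of 1 FPKM over both groups and were compared, and 49 of the 51 were among them. A log2 ratio of at least 1 was reached by 39 of the 49, against 6.97% of all genes compared. The direction was higher in all 39, and 0 were 2-fold lower, against 10.03% of all genes. After rescaling to equal sums without mitochondrial and top 10 genes, the shares of all genes were 8.96% higher and 7.84% lower. Separate bounds were found for 32, all higher, against 6.66% of all genes with status OK, and for 0 in the lower direction, against 9.33%. All 32 were also 2-fold higher, a combination met by 5.27% of all genes with status OK. Since the genes were chosen with this contrast in view, these shares are given as background and nothing is read from the gap. The median log2 ratio was 1.47 over the 49 genes and -0.06 over all genes compared.

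The filter let 6 of the 49 genes pass through their Rbfox2 OE value alone, with under 1 FPKM in the control, namely Dhx58, Zbp1, Oas1a, Mx2, Usp18 and Ifi44. Among the 43 genes with at least 1 FPKM in the control, 33 were 2-fold higher and 28 had separate bounds. Among the 22 with at least 5 FPKM there, 15 were 2-fold higher and 12 had separate bounds. The share of all genes was not taken under these limits on the control value, so nothing is read from these counts. These are bulk preparations, so fewer cells of a type and less RNA per cell cannot be told apart. Markers of macrophages and leukocytes were higher too, in value in 17 of 17, and summed to 161 FPKM in MHC control against 589 FPKM in Rbfox2 OE. Their part, and that of the other cells whose markers are given at the end, in the levels of the interferon-stimulated genes was not tested.

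**Figure D2:**
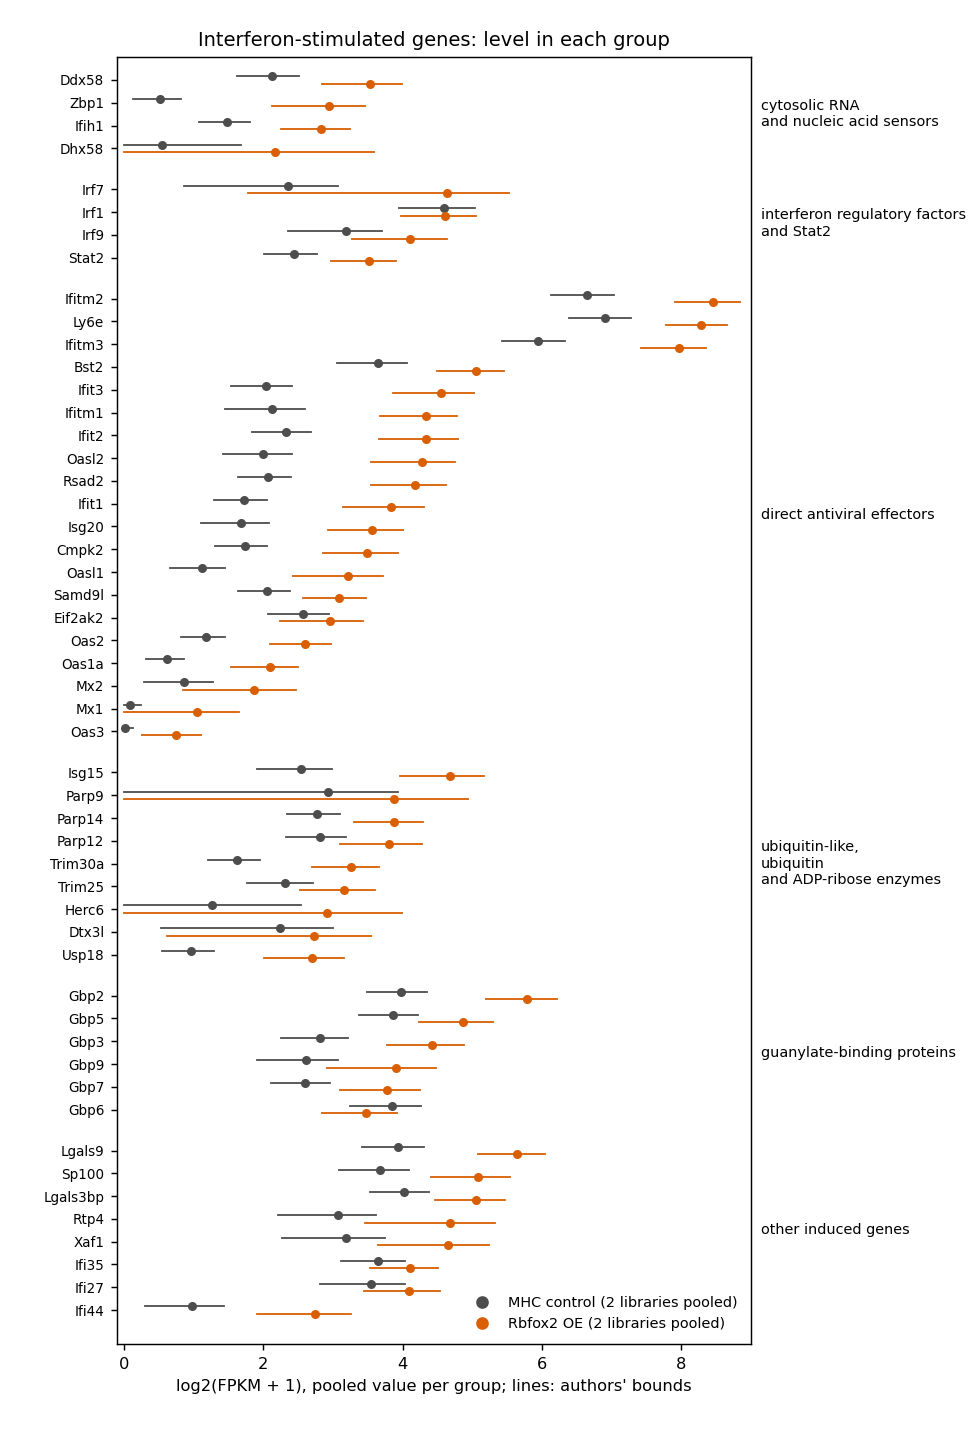
Level of each of the 51 genes in MHC control (grey) and Rbfox2 OE (orange) as log2(FPKM + 1), by role; points are the pooled values of 2 libraries and lines the authors' bounds. The orange points lie to the right of the grey ones except for Gbp6, and Irf1 is level in both groups.

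**Figure D3:**
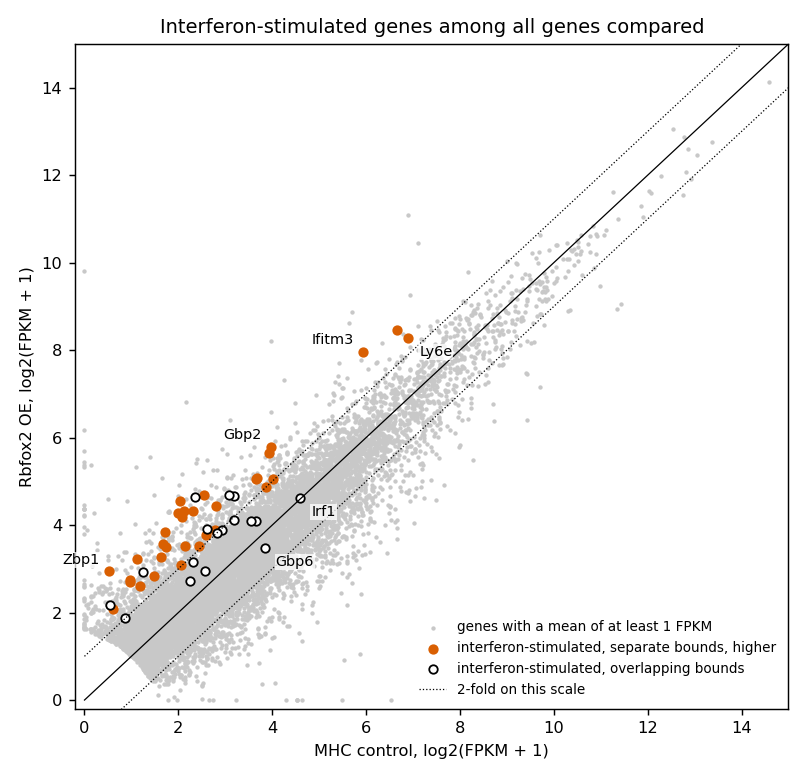
Level in Rbfox2 OE against MHC control, as log2(FPKM + 1), for the 11699 genes compared (grey) and the 49 interferon-stimulated genes among them (filled orange with separate bounds, open with overlapping bounds). 39 of the 49 lie on or above the upper dotted line, which marks a 2-fold difference, and 0 lie below the lower one.

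For the counts by role that follow, the share of all genes compared that were 2-fold higher was 6.97%. With separate bounds 6.66% of those with status OK were higher. The genes were chosen with results known, so nothing is read from these counts. They include the 6 genes that passed the filter through their Rbfox2 OE value alone. The sensors that recognise foreign nucleic acid in the cytosol are given first, and all 4 stood at least 2-fold higher. Ddx58, which encodes the RNA sensor RIG-I, stood at 3.38 FPKM in MHC control (2.07 to 4.695) against 10.6 FPKM in Rbfox2 OE (6.203 to 14.95), a log2 ratio of 1.402. Ifih1, the sensor of long double-stranded RNA, stood at 1.801 FPKM in MHC control (1.104 to 2.497) against 6.11 FPKM in Rbfox2 OE (3.79 to 8.44). Zbp1, a sensor of nucleic acid in the Z conformation that can trigger necroptosis, stood at 0.426 FPKM in MHC control (0.0933 to 0.758) against 6.68 FPKM in Rbfox2 OE (3.38 to 9.97). The control value of Zbp1 was under 1 FPKM, so its log2 ratio of 2.43 depends on the pseudocount and became 3.69 with 0.1 FPKM and 1.11 with 5. Bounds were separate for these 3 genes. Dhx58, the related regulator LGP2, stood at 0.458 FPKM in MHC control (0 to 2.22) against 3.49 FPKM in Rbfox2 OE (0 to 11.02), and its bounds overlapped. Its row shares a locus of the table with 6 others.

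The set of interferon regulatory factors and Stat2 held 4 genes, with log2 ratios from 0.02 to 2.28. Irf7, the factor that amplifies type I interferon production, stood at 4.13 FPKM in MHC control (0.815 to 7.45) against 23.9 FPKM in Rbfox2 OE (2.43 to 45.3). Its log2 ratio of 2.28 was the highest of the 4, but its bounds overlapped. Stat2 stood at 4.42 FPKM in MHC control (3.01 to 5.84) against 10.4 FPKM in Rbfox2 OE (6.84 to 13.98), a log2 ratio of 1.07 with separate bounds. Irf9, a partner of STAT2 on DNA, stood at 8.098 FPKM in MHC control (4.09 to 12.1) against 16.3 FPKM in Rbfox2 OE (8.702 to 23.8), a log2 ratio of 0.92 with overlapping bounds. Irf1, a factor induced through the GAS by interferon gamma, stood at 23.2 FPKM in MHC control (14.5 to 31.98) against 23.5 FPKM in Rbfox2 OE (14.8 to 32.3), a log2 ratio of 0.02. Among the 4, 1 had separate bounds and 2 were 2-fold higher after adding 1 FPKM, and Irf9 passed 2-fold on the FPKM values alone.

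The direct antiviral effectors made up the largest set, 20 genes, and held the most abundant ones. Of the 18 compared, 17 were at least 2-fold higher and 16 had separate bounds, with a median log2 ratio of 1.85. The highest levels were those of the membrane proteins that hinder virus entry. Ifitm2 stood at 99.5 FPKM in MHC control (69.2 to 129.8) against 351 FPKM in Rbfox2 OE (241 to 461), and Ifitm3 at 60.6 FPKM in MHC control (41.9 to 79.3) against 249 FPKM in Rbfox2 OE (170.2 to 329). Ly6e, a membrane-anchored protein that modulates virus fusion, stood at 119 FPKM in MHC control (82.7 to 154) against 311 FPKM in Rbfox2 OE (219 to 403). These 3 genes were the only ones of the 51 above 60 FPKM in either group, and together with Bst2 their bounds were separate. Bst2, or tetherin, which holds budding viruses at the cell surface, stood at 11.6 FPKM in MHC control (7.36 to 15.8) against 32.2 FPKM in Rbfox2 OE (21.5 to 42.98). Ifitm1 was lower in level, at 3.38 FPKM in MHC control (1.72 to 5.03) against 19.2 FPKM in Rbfox2 OE (11.8 to 26.5), with a log2 ratio of 2.202.

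The IFIT proteins bind foreign RNA and block its translation, and their 3 genes were among the largest ratios. Ifit3 had the largest log2 ratio of all 51 genes, 2.52, at 3.11 FPKM in MHC control (1.91 to 4.31) against 22.6 FPKM in Rbfox2 OE (13.5 to 31.6). Ifit1 stood at 2.31 FPKM in MHC control (1.45 to 3.17) against 13.3 FPKM in Rbfox2 OE (7.87 to 18.8), a log2 ratio of 2.12. Ifit2 stood at 3.99 FPKM in MHC control (2.58 to 5.41) against 19.1 FPKM in Rbfox2 OE (11.6 to 26.7), a log2 ratio of 2.01. All 3 had separate bounds, and the ISRE cores of Ifit3 and Ifit1 are those printed above, while the window of Ifit2 held a GAS match alone. Rsad2 encodes viperin, which makes a chain-terminating nucleotide, and Cmpk2 is its neighbour on chromosome 12 and supplies nucleotides. Rsad2 stood at 3.196 FPKM in MHC control (2.103 to 4.29) against 17.1 FPKM in Rbfox2 OE (10.6 to 23.6) and Cmpk2 at 2.32 FPKM in MHC control (1.48 to 3.16) against 10.2 FPKM in Rbfox2 OE (6.26 to 14.2), with log2 ratios of 2.11 and 1.76 and separate bounds for both.

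The oligoadenylate synthetases sense double-stranded RNA and switch on the nuclease RNase L. Oasl2, a synthetase-like gene, was the highest of them, at 2.99 FPKM in MHC control (1.68 to 4.303) against 18.4 FPKM in Rbfox2 OE (10.7 to 25.996). Oasl1, a related gene known as a brake on Irf7 translation, stood at 1.16 FPKM in MHC control (0.584 to 1.74) against 8.297 FPKM in Rbfox2 OE (4.36 to 12.2). Oas2 stood at 1.26 FPKM in MHC control (0.769 to 1.74) against 5.05 FPKM in Rbfox2 OE (3.28 to 6.82) and Oas1a at 0.534 FPKM in MHC control (0.243 to 0.825) against 3.27 FPKM in Rbfox2 OE (1.901 to 4.63). These 4 had separate bounds and log2 ratios between 1.42 and 2.28. Oas3 was below the minimum mean, at 0.00896 FPKM in MHC control (0 to 0.0925) against 0.6798 FPKM in Rbfox2 OE (0.202 to 1.16), with bounds that did not overlap. Isg20, an exonuclease that degrades viral RNA, stood at 2.19 FPKM in MHC control (1.16 to 3.23) against 10.8 FPKM in Rbfox2 OE (6.65 to 15.02), a log2 ratio of 1.89. Samd9l, a restriction factor, stood at 3.16 FPKM in MHC control (2.11 to 4.21) against 7.52 FPKM in Rbfox2 OE (4.93 to 10.1), a log2 ratio of 1.03 with separate bounds.

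The 2 Mx genes, of a family of dynamin-like GTPases against viruses, were low in both groups. Mx2 is annotated as a polymorphic pseudogene, so a working protein cannot be taken from its level. Mx1 was below the minimum mean, at 0.0592 FPKM in MHC control (0 to 0.185) against 1.07 FPKM in Rbfox2 OE (0 to 2.15). Mx2 stood at 0.821 FPKM in MHC control (0.226 to 1.42) against 2.66 FPKM in Rbfox2 OE (0.80003 to 4.51), a log2 ratio of 1.01 with overlapping bounds. Eif2ak2 encodes the kinase PKR, which halts translation on double-stranded RNA, and it was the 1 effector compared that was not 2-fold higher. It stood at 4.95 FPKM in MHC control (3.18 to 6.72) against 6.78 FPKM in Rbfox2 OE (3.74 to 9.81), a log2 ratio of 0.39 with overlapping bounds.

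Enzymes that attach ubiquitin, the ubiquitin-like ISG15 or ADP-ribose were next, with 5 of 9 at least 2-fold higher and 4 with separate bounds. Isg15, the ubiquitin-like modifier itself, stood at 4.84 FPKM in MHC control (2.77 to 6.91) against 24.8 FPKM in Rbfox2 OE (14.6 to 34.9), a log2 ratio of 2.14. Usp18, which removes ISG15 and dampens the receptor, stood at 0.953 FPKM in MHC control (0.461 to 1.45) against 5.48 FPKM in Rbfox2 OE (3.04 to 7.93). Herc6, the mouse ligase for ISG15, stood at 1.39 FPKM in MHC control (0 to 4.85) against 6.57 FPKM in Rbfox2 OE (0 to 14.96), with bounds that reach 0 and overlap. Modifier and protease thus both stood higher with separate bounds. Trim30a, a ubiquitin ligase, stood at 2.09 FPKM in MHC control (1.31 to 2.86) against 8.605 FPKM in Rbfox2 OE (5.51 to 11.7), and Parp14, an ADP-ribosyltransferase, at 5.82 FPKM in MHC control (4.05 to 7.5995) against 13.7 FPKM in Rbfox2 OE (8.84 to 18.6), both with separate bounds. Just under the 2-fold line on the scale with 1 FPKM added was Parp12, with a log2 ratio of 0.99 and overlapping bounds. Below it were Parp9 at 0.94, Trim25 at 0.85 and Dtx3l at 0.48, also with overlapping bounds. Parp9 and Dtx3l form a protein complex and overlap each other on the chromosome, so their fragments may have been split between them.

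Guanylate-binding proteins are large GTPases that attack the membranes of intracellular microbes and are induced strongly by interferon gamma. In this set 5 of 6 were 2-fold higher and 4 had separate bounds. Gbp2 was the highest, at 14.8 FPKM in MHC control (10.2 to 19.3) against 54.5 FPKM in Rbfox2 OE (35.7 to 73.2), a log2 ratio of 1.81. Gbp3 stood at 6.01 FPKM in MHC control (3.75 to 8.27) against 20.6 FPKM in Rbfox2 OE (12.6 to 28.5), Gbp5 at 13.5 FPKM in MHC control (9.36 to 17.6) against 28.1 FPKM in Rbfox2 OE (17.8 to 38.4) and Gbp7 at 5.03 FPKM in MHC control (3.31 to 6.75) against 12.8 FPKM in Rbfox2 OE (7.58 to 17.9). These 4 genes lie in 1 cluster on chromosome 3, and all had separate bounds. Gbp9, on chromosome 5, stood at 5.097 FPKM in MHC control (2.78 to 7.42) against 13.9 FPKM in Rbfox2 OE (6.54 to 21.4), a log2 ratio of 1.29 with bounds that overlapped. Gbp6, also on chromosome 5, stood at 13.3 FPKM in MHC control (8.46 to 18.2) against 10.2 FPKM in Rbfox2 OE (6.202 to 14.1), a log2 ratio of -0.36 with overlapping bounds.

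The remaining 8 genes have mixed roles, and 6 were 2-fold higher, 4 of them with separate bounds. Lgals9, a galectin, stood at 14.2 FPKM in MHC control (9.68 to 18.8) against 48.9 FPKM in Rbfox2 OE (32.8 to 65.004), and Lgals3bp, a secreted galectin ligand, at 15.2 FPKM in MHC control (10.5 to 19.9) against 32.2 FPKM in Rbfox2 OE (21.2 to 43.2). Sp100, a component of nuclear bodies, stood at 11.7 FPKM in MHC control (7.47 to 16.01) against 32.95 FPKM in Rbfox2 OE (20.1 to 45.8). Ifi44 stood at 0.973 FPKM in MHC control (0.229 to 1.72) against 5.66 FPKM in Rbfox2 OE (2.74 to 8.58). These 4 had separate bounds. Rtp4, a chaperone of receptors, stood at 7.45 FPKM in MHC control (3.62 to 11.3) against 24.6 FPKM in Rbfox2 OE (9.96 to 39.2), and Xaf1, a partner of the apoptosis inhibitor XIAP, at 8.11 FPKM in MHC control (3.84 to 12.4) against 24.2 FPKM in Rbfox2 OE (11.5 to 36.9). Their log2 ratios were 1.599 and 1.47, but the bounds overlapped. Ifi35 and Ifi27 had log2 ratios of 0.46 and 0.54, with overlapping bounds.

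The bounds were also read by the layout of the loci. Cuffdiff distributes fragments among the rows of a locus, and 20 of the 51 genes share their locus with another row while 31 stand alone. Of the 13 shared-locus genes that were 2-fold higher, 5 had overlapping bounds, against 2 of the 26 that stand alone. For the shared loci the upper bound lay a median of 42.1% above the MHC value and 44.7% above the Rbfox2 OE value, and for the others 38.5% and 38.9% above. Over all genes compared the medians were 38.4% and 39.3%. The split by locus was not taken over all genes, so nothing is read from these counts. Another annotated gene overlaps 21 of the 51 genes, and for 15 of them such a gene lies on the opposite strand. These values are uncertain, since how fragments were assigned where genes overlap was not tested.

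Several families lie in clusters, so the neighbours were read out in chromosomal order, whole families by name (GENCODE M21, GRCm38). The Ifit cluster on chromosome 19 holds 6 genes from Ifit2 (34550694 to 34576419, plus strand) to Ifit1 (34640871 to 34650009, plus strand). Of these 6, 4 were higher with separate bounds, the 3 described and Ifit3b at 1.08 FPKM in MHC control (0.579 to 1.58) against 5.36 FPKM in Rbfox2 OE (3.16 to 7.55). Ifit1bl1 (34592891 to 34601956, minus strand), which lies between Ifit3 and Ifit3b, was the 1 lower with separate bounds, at 5.104 FPKM in MHC control (3.36 to 6.84) against 0.942 FPKM in Rbfox2 OE (0.507 to 1.38), a log2 ratio of -1.65. Ifit1bl2, between Ifit3b and Ifit1, had a log2 ratio of -0.63 with overlapping bounds. Both are on the minus strand, while the other 4 are on the plus strand. On rescaling without mitochondrial and top genes the log2 ratio of Ifit1bl1 was -1.58 and the log2 ratio of Ifit1bl2 was -0.53, and both genes lay below a minimum mean of 5 FPKM.

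In the Gbp family 12 rows were found. Those on chromosome 3 that were compared, the 4 above, were higher with separate bounds. On chromosome 5, Gbp9 and Gbp4 had log2 ratios of 1.29 and 1.199, and the adjacent pair Gbp10 and Gbp6 had -0.58 and -0.36, all 4 with overlapping bounds. Gbp10 stood at 3.95 FPKM in MHC control (1.56 to 6.34) against 2.305 FPKM in Rbfox2 OE (0.579 to 4.03). Gbp6 and Gbp10 share 1 locus of the table and have similar sequences, as do Gbp9, Gbp4 and Gbp8. The Ifitm cluster on chromosome 7 had 4 genes higher with separate bounds, the 3 described and Ifitm6 at 0.2502 FPKM in MHC control (0 to 0.569) against 1.92 FPKM in Rbfox2 OE (0.873 to 2.97). Of 12 Oas rows, 4 were compared and all 4 had separate bounds, and 4 were listed at 0 in both groups. Ifitm6 and Oas1a had under 1 FPKM in the control and passed the filter through their Rbfox2 OE value alone. Of all genes with status OK, 6.66% were higher with separate bounds, and nothing is read from the family counts beside this share.

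**Figure D4:**
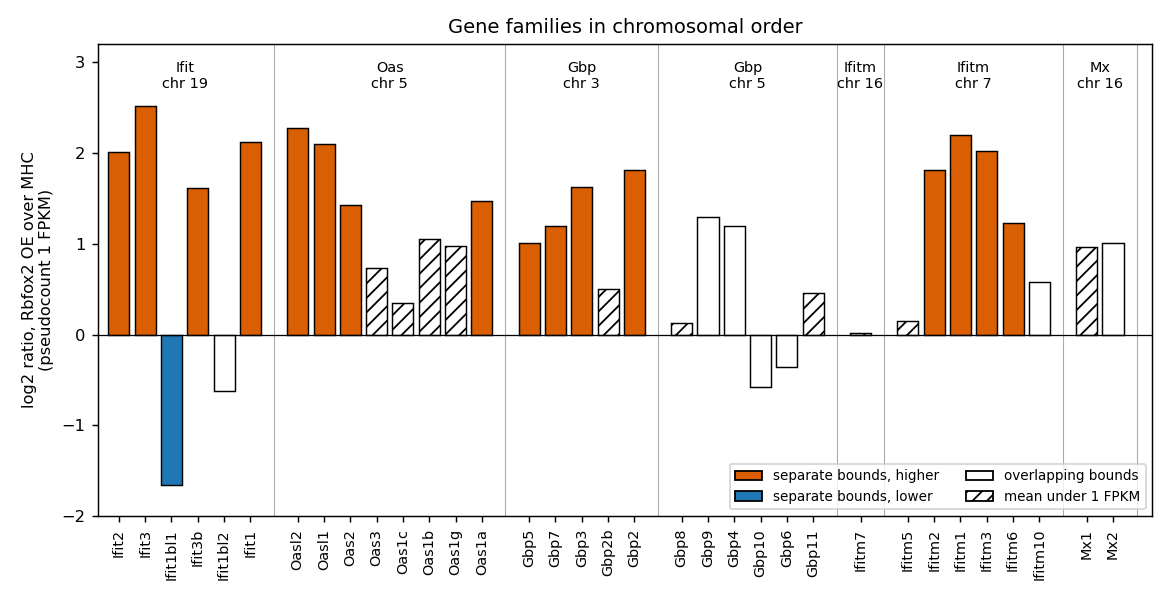
Log2 ratio, Rbfox2 OE over MHC control (pseudocount 1 FPKM), for every gene of 5 families not listed at 0 in both groups, in chromosomal order. Orange bars are higher and blue bars lower with separate bounds, white bars have overlapping bounds and hatched bars a mean under 1 FPKM; Ifit1bl1, at -1.65, is the 1 blue bar, and Gbp10 and Gbp6 are the 2 white bars below 0 on chromosome 5.

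The genes upstream of the response were taken from lists of ligands, receptors, kinases, inducers and clearing enzymes. For the counts in these lists, the shares of all genes compared were 6.97% for 2-fold higher and 10.03% for 2-fold lower. With separate bounds they were 6.66% higher and 9.33% lower among genes with status OK. The lists are short, and nothing is read from their counts beside these shares. Of 17 interferon genes, 15 were listed at 0 in both groups, Ifnb1 and 10 Ifna genes among them. Ifng stood at 0.0375 FPKM in MHC control (0 to 0.109) against 0.0276 FPKM in Rbfox2 OE (0 to 0.0923), and Ifnk at 0.0223 FPKM in the control and at 0 in Rbfox2 OE. None was compared, since all lay below the minimum mean.

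Of the 6 receptor chains, 5 were compared, and the median log2 ratio was -0.0017. Ifngr1, the binding chain for interferon gamma, stood at 17.98 FPKM in MHC control (12.2 to 23.8) against 37.998 FPKM in Rbfox2 OE (24.8 to 51.2), the 1 with separate bounds, at a log2 ratio of 1.04. Ifnar1 and Ifnar2, the chains for type I interferon, had log2 ratios of 0.800 and -0.0017 with overlapping bounds. Ifnar2 lay within 0.01 of no difference and moved to 0.14 on rescaling. Ifngr2 and Il10rb had log2 ratios of -0.39 and -0.79, with overlapping bounds.

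Among the 12 kinases, STATs and negative regulators, 1 had separate bounds. It was Ptpn6, the phosphatase SHP-1 of blood cells, at 1.25 FPKM in MHC control (0.292 to 2.22) against 6.0001 FPKM in Rbfox2 OE (3.87 to 8.13). Ptpn11, the widely expressed SHP-2, had a log2 ratio of -1.12 with overlapping bounds. Jak1, Stat3 and Socs3 had log2 ratios of -0.39, 0.11 and 0.704, with overlapping bounds.

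Of 17 genes that start interferon production, 15 were compared. Among these, 4 were 2-fold higher and 1 was 2-fold lower, against 6.97% and 10.03% of all genes compared. Ikbke, 1 of the 4, passed the filter through its Rbfox2 OE value alone. Ikbke, an inducible kinase of IRF factors, stood at 0.289 FPKM in MHC control (0.00531 to 0.573) against 2.31 FPKM in Rbfox2 OE (1.22 to 3.401), and Tmem173, the adaptor STING, at 3.52 FPKM in MHC control (2.27 to 4.78) against 10.9 FPKM in Rbfox2 OE (7.44 to 14.4), both with separate bounds. Ticam1, the adaptor of Tlr3, was lower with separate bounds, at 6.49 FPKM in MHC control (4.41 to 8.56) against 2.23 FPKM in Rbfox2 OE (1.41 to 3.05). Mavs, the adaptor of Ddx58 and Ifih1, stood at 34.3 FPKM in MHC control (24.2 to 44.4) against 26.8 FPKM in Rbfox2 OE (18.7 to 34.8), with overlapping bounds. Of the 7 genes that clear nucleic acids, 0 had separate bounds, and Rnaseh2b was the 1 beyond 2-fold, at a log2 ratio of -1.13.

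A further list of 48 interferon-induced genes outside the 51 was read out in the same way. Of the 41 compared, 22 were 2-fold higher and 1 was 2-fold lower, against 6.97% and 10.03% of all genes compared. Separate bounds in the higher direction were found for 19, against 6.66% of all genes with status OK, and the median log2 ratio was 1.07. Trim34a, Epsti1, Slfn8 and Slfn9 had under 1 FPKM in the control and passed the filter through their Rbfox2 OE value alone. This list too was chosen with results known, so nothing is read from the gap. Ifi204, a DNA sensor of the IFI200 family, had the largest ratio, at 2.12 FPKM in MHC control (1.28 to 2.96) against 12.2 FPKM in Rbfox2 OE (7.66 to 16.8). Ifi205, of the same family, stood at 5.15 FPKM in MHC control (3.29 to 7.004) against 21.9 FPKM in Rbfox2 OE (14.3 to 29.6). Rnf213, a large ubiquitin ligase, stood at 4.897 FPKM in MHC control (2.5001 to 7.29) against 21.3 FPKM in Rbfox2 OE (10.2 to 32.5). Phf11d and Ifi27l2a had log2 ratios of 1.93 and 1.71, with separate bounds. The 1 gene that was 2-fold lower was Ifit1bl1, described above. In value, 43 of the 48 were higher and 5 lower.

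**Figure D5:**
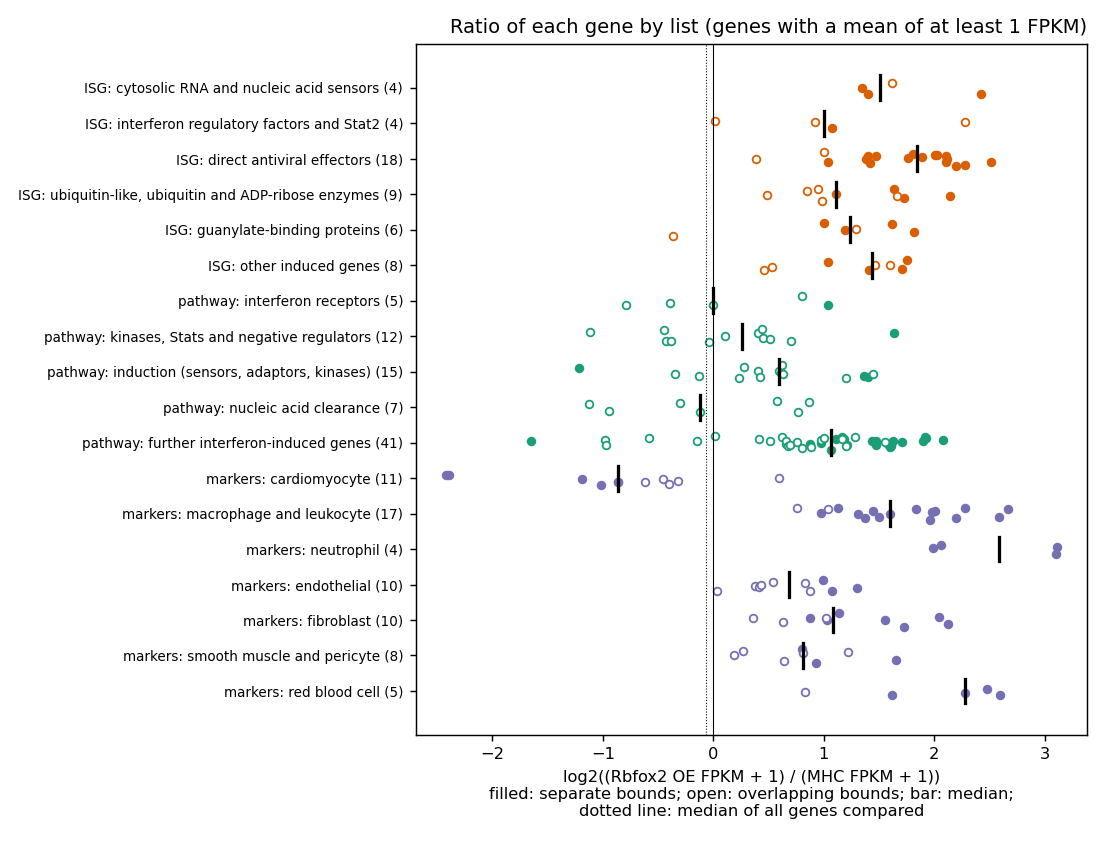
Log2 ratio of each gene with a mean of at least 1 FPKM, by list (ISG: interferon-stimulated genes), with the number of genes in brackets; filled points have separate bounds, bars mark medians and the dotted line the median of all genes compared, -0.06. The medians of the interferon-stimulated and further interferon-induced genes and of every marker list shown except cardiomyocytes lie to the right. Those of the marker lists run from 0.69 (endothelial) over 1.08 (fibroblast) to 2.58 (neutrophil), and that of the induction list is 0.59. The median of the cardiomyocyte markers lies to the left, with 1 marker, Ttn at 0.597, on the right. The medians of the receptor, kinase and nucleic acid clearance lists lie around 0.

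Markers of other cells were read out as a check of the preparation. Of all genes with status OK, 6.66% were higher and 9.33% lower with separate bounds. All 17 macrophage and leukocyte markers were higher in value, 15 with separate bounds, with a median log2 ratio of 1.60. Neutrophil markers summed to 8.84 FPKM in MHC control against 92.6 FPKM in Rbfox2 OE, the order kept for the sums that follow. Of the 6, 4 reached the minimum mean and all 4 had separate bounds, and Cxcr2, below it, had bounds that did not overlap either. Csf3r and Retnlg, among the 4, had under 1 FPKM in the control and passed the filter through their Rbfox2 OE value alone. So did Adgre1 of the macrophage and leukocyte markers, and Hba-a2 and Alas2 of the red blood cell markers. None of the 10 T, B and NK cell markers exceeded 0.387 FPKM in either group. Of the 6 dendritic cell markers, Siglech, which defines the plasmacytoid cells known for interferon production, stood at 0.0457 FPKM in MHC control (0 to 0.201) against 0.164 FPKM in Rbfox2 OE (0 to 0.372), and Itgax was the highest, at 1.23 FPKM in Rbfox2 OE. All 6 were below the minimum mean, and the bounds of Itgax and Flt3 did not overlap. Endothelial markers summed to 544 FPKM and 831 FPKM, with 3 of 10 at separate bounds. Fibroblast markers summed to 240 FPKM and 562 FPKM, with 7 of 10. Smooth muscle and pericyte markers summed to 147 FPKM and 328 FPKM, with 3 of 8, and red blood cell markers to 56.6 FPKM and 295 FPKM, with 4 of 6. Every marker with separate bounds in these lists was higher in Rbfox2 OE. Cardiomyocyte markers stayed the most abundant, at 63465 FPKM and 39832 FPKM in sum without Myh6, and 6 of the 11 with an estimate were lower with separate bounds. In value 10 of the 11 were lower. The 1 higher was Ttn, at 166 FPKM in MHC control (56.8 to 275) against 252 FPKM in Rbfox2 OE (161 to 343), with overlapping bounds.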

How the data were processed

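Polyadenylated RNA of isolated cardiomyocytes was sequenced from TruSeq stranded libraries, per the labels' protocols, in 2 libraries per group. The values are FPKM, which the authors estimated with Cuffdiff 2.2.1, per the file headers and the submitters' processing notes, pooling the libraries of a group into 1 value with bounds whose level is not stated. The notes also name STAR 2.4.2a, Trimmomatic, HTSeq and the builds GRCm38 and mm10, with no role; the annotation and strand setting are not given in the sources used here. Depth in reads is unknown, so no counting interval was given. Unused columns of per-library values numbered 0.

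Each of the 48432 gene rows was kept as it is (110 names occur on several rows, and in a list the row with the highest mean was used). The log2 ratio used a pseudocount of 1 FPKM, and the comparison took genes whose mean over both groups was 1 FPKM or more. Genes were counted at 2-fold and by separate bounds, the latter with status OK. Of the gene identifiers, 99.2% were found in GENCODE M21 (GRCm38), and for 99.95% of these the locus and the annotation overlapped. The calculations, in Python 3.11.15 with pandas 2.3.3, were tested on simulated data. The members and the other gene lists were chosen with earlier results of these data known. All members may be named; those with separate bounds or a 2-fold difference get full values, and of each other list up to 5 genes are named, by separate bounds and size of the ratio and then by level, with exceptions stated in the text; 1 gene of these lists is counted but its values are not reported here. Alternatives covered the pseudocount, the filter, the scaling, the status, the bounds, the fold threshold, and the mean in place of the median.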

Additional observations from a re-analysis of the deposited data

How the results depend on the processing

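No paired analysis was possible because each group has a single pooled value, so fits with a replicate block and fits leaving out each library, listed among the alternatives, were not run. Of the 111 counts and medians of the interferon-stimulated, further interferon-induced and signalling genes recomputed under the alternatives, 95 stayed within 1.5 times of the count, or 0.1 of the median, that was reported. The number of interferon-stimulated genes 2-fold higher, 39, was 22 with a pseudocount of 5 FPKM and 11 at a 4-fold threshold. Their median log2 ratio of 1.47 became 1.71 with a pseudocount of 0.1, 0.89 with 5 and 1.59 on rescaling without mitochondrial and top genes. That rescaling shifted the median of all genes compared by 0.13, so relative to it the median was 1.53 as deposited and 1.52 rescaled. The shares of all genes that were 2-fold higher and lower, 6.97% and 10.03%, became 8.96% and 7.84%, so that the larger share changed sides, and the median of all genes compared went from -0.06 to 0.06; without a filter it was 0.012. Among the further interferon-induced genes, 22 were 2-fold higher and 1 lower; a pseudocount of 0.1 gave 3 lower, a pseudocount of 5 gave 9 higher and 0 lower, and a minimum mean of 5 FPKM left 0 lower, with 0 lower by separate bounds. Among the signalling genes as a whole, 6 were 2-fold higher and 3 lower; a pseudocount of 5 gave 0 higher and 1 lower, and a minimum mean of 5 FPKM gave 3 higher and 1 lower, with 2 higher and 0 lower by separate bounds in place of 4 and 1. A larger pseudocount shrinks the ratios of low genes, and a higher minimum leaves fewer genes. The difference between libraries of 1 group is unknown, which limits every value, and the unknown depth limits those near 0 most.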
